A study of Carassius auratus with 9 samples.

Results

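Gene expression was compared between brown and white back skin of celestial goldfish, an ornamental breed of Carassius auratus. The comparison used 6 of the 9 libraries of the study, which also sequenced yellow skin: 3 biological replicates labelled brown and 3 labelled white, all from fish aged 4 months. The sources used here describe the fish by breed, color and age alone, so whether the colors differ in genotype or rearing is unknown from them. A gene was a member of the comparison where its FPKM (fragments per kilobase, scaled to library size) was at least 1 in 3 or more of these 6 libraries, which held for 25108 of the 74297 genes. Differences are means of log2(FPKM + 1) in brown minus white, a scale that understates how much weakly expressed genes differ. They were tested with limma in a fit that also held the yellow libraries, with Benjamini-Hochberg adjustment over all 25108 genes at 0.05.

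Of these, 10 passed: 6 rose and 4 fell in brown. The genes that rose encode a seipin of the lipid droplet, a retinol dehydrogenase, a putative defense protein and a subunit of the actin-branching Arp2/3 complex, together with a pair of unannotated transcripts. The genes that fell were 3 copies of coagulation factor XIII A, a crosslinking enzyme of clots and matrix, and a copy of SAMD7. Around these, several melanosome genes, slow muscle proteins, the chains of laminin-332 and genes that respond to glucocorticoids in mammals were higher in brown skin without passing, and glucocorticoid receptor copies were lower.

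In fish skin, color comes from pigment cells of neural crest origin that lie around the scales and under the epidermis. Melanophores make melanin in melanosomes, with tyrosinase and TYRP1 as enzymes and PMEL as the fibrous matrix, xanthophores hold pteridines and carotenoids in vesicles and lipid droplets, and iridophores hold guanine crystals. The rest of back skin is a layered epidermis with mucous cells, a collagen-rich dermis that carries the scales, vessels, nerves and fat, with the body muscle beneath. Goldfish descend from an ancestor whose genome was duplicated, so many genes exist as near-identical copies.

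Between 13772601 and 17359648 reads per library fell on genes. FPKM rests on the authors' denominators, which were 1.28, 1.12 and 0.675 times these reads in brown 1, 2 and 3. In white 1, 2 and 3 they were 1.39, 1.08 and 0.689 times the reads. A read thus counts for the most FPKM in the libraries numbered 3. Where libraries of a color are ranked by FPKM below, the order also depends on these denominators. Except for genes with few reads, the precision of each value is limited mainly by the 3 replicates. The tissues in the libraries differed within each color. Skeletal muscle genes took 6.59%, 2.66% and 21.2% of the brown reads and 2.33%, 12.98% and 36.1% of the white reads. Keratinocyte genes took 4.51%, 2.504% and 3.64% of the brown reads and 6.73%, 1.66% and 1.21% of the white reads, and genes of dermis and scale 6.71%, 4.54% and 6.85% of the brown reads and 5.17%, 20% and 4.36% of the white reads. White 2 and white 3 had the lowest keratinocyte shares, and white 2 alone had a high dermal share. Brown 3 and white 3 had the highest muscle shares of their color. Correlations between log2 profiles were 0.799 to 0.892 within brown and 0.768 to 0.865 within white, while the highest between the colors was 0.925, for brown 1 and white 1. In bulk skin, fewer cells of a type and less RNA per cell cannot be told apart. The labels call the replicates biological without saying how the fish were taken, so the p-values measure the spread between these samples. That spread includes the yellow libraries, which share the fit.

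The 10 called genes were 0.0398% of the 25108 tested, 0.0239% higher and 0.0159% lower in brown. An unadjusted p under 0.05 was reached by 1452 genes (5.78%), 900 higher (3.58%) and 552 lower (2.2%). The 3 brown values did not overlap the 3 white values for 2719 genes (10.8%), 1428 higher (5.69%) and 1291 lower (5.14%). A difference of at least 1 log2 unit without overlap was found for 741 genes (2.95%), 532 higher (2.12%) and 209 lower (0.832%). The median difference over all tested genes was -0.02, the central 90% of genes lay between -0.85 and 0.99, and 92 genes were higher and 31 lower by at least 2. With TPM, which removes the authors' unequal library denominators, the median gene shifted to -0.20 and the large differences split into 378 higher and 230 lower, 62.2% higher in place of 71.8%. The plot of all tested genes shows both the 741 large differences and the 10 calls.

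**Figure D1:**
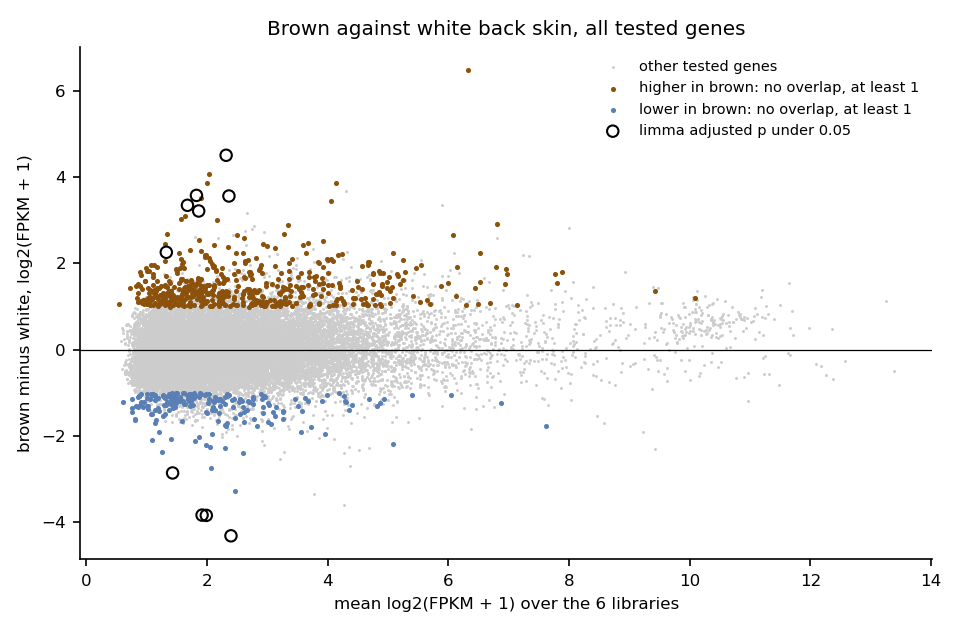
Difference between brown and white skin against the mean level for all 25108 tested genes, both on the log2(FPKM + 1) scale, with 1 point a gene. Brown and blue points mark the 532 genes higher and 209 lower in brown by at least 1 without overlap, and rings mark the 10 genes with a limma adjusted p under 0.05, most of which have a mean level between 1 and 3.

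Among the 6 genes that rose, seipin-like LOC113045120 (chromosome 27, 3480392 to 3485304) had the largest difference. Proteins of this family shape lipid droplets at the endoplasmic reticulum. The gene had 17.8, 53.6 and 12.01 FPKM in brown 1, 2 and 3 against 0, 0.0316 and 0.101 in white 1, 2 and 3, a log2 difference of 4.51 ± 0.49 (SE; limma adjusted p = 0.0237). All 3 brown libraries stood far above the white ones, and brown 2 was the highest. Also called was retinol dehydrogenase 12-like LOC113042262 (chromosome 24, 10404792 to 10407468), of a family that converts retinal and retinol, with 18.2, 25.4 and 9.89 FPKM in brown against 0.275, 0.385 and 0.8899 in white (3.56 ± 0.40, limma adjusted p = 0.0237). The groups were far apart here too, with white 3 the highest white library. Its neighbour on the chromosome (LOC113042263; chromosome 24, 10407669 to 10418190), another gene of the family, had 1.67, 8.68 and 1.24 FPKM in brown against 0.0614, 0.102 and 0.122 in white and did not pass (1.82 ± 0.66, limma adjusted p = 0.797). Without brown 2 its difference was 1.16, and all brown libraries exceeded all white ones.

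Putative defense protein 3 (LOC113094292; unplaced sequence, 60766 to 62666), named after secreted insect proteins of the immune response, had 7.18, 13.5 and 7.903 FPKM in brown against 0, 0 and 0 in white (limma adjusted p = 0.0106). No white library had a read of it. An unannotated transcript (chromosome 2, 25874338 to 25878146) had 14.97, 10.4 and 9.07 FPKM in brown against 0.0742, 0 and 0 in white (limma adjusted p = 0.0106), and a shorter one (chromosome 2, 19678391 to 19678871) 3.66, 6.04 and 4.005 FPKM in brown against 0.0931, 0 and 0.3703 in white (limma adjusted p = 0.0255). Both were at or near 0 in each white library. The sixth rise was in an Arp2/3 complex subunit 4 gene (LOC113111009; chromosome 11, 10754558 to 10757665), part of the machine that branches actin filaments, with 10.8, 5.87 and 15.8 FPKM in brown against 0.624, 0.0408 and 0 in white (3.22 ± 0.35, limma adjusted p = 0.0237). White 1 held nearly all of its white signal.

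Of the 4 falls, 3 were coagulation factor XIII A chain-like copies. LOC113042740 (chromosome 24, 7353191 to 7366546) had 0.0941, 0.179 and 0.274 FPKM in brown against 13.4, 24.5 and 34.1 in white (-4.31 ± 0.50, limma adjusted p = 0.02395). LOC113066051 (chromosome 49, 3572535 to 3585956) had 0.0929, 0 and 0.0514 FPKM in brown against 8.97, 14.02 and 21.5 in white (-3.84 ± 0.37, limma adjusted p = 0.0161), and LOC113042211 (chromosome 24, 7398476 to 7414168) 0, 0 and 0 FPKM in brown against 4.603, 5.21 and 9.91 in white (limma adjusted p = 0.0237). In each of the 3 copies all white libraries exceeded all brown ones. By FPKM white 3 was highest and white 1 lowest of the white libraries. The authors' denominators, at 1.39, 1.08 and 0.689 times the reads in white 1, 2 and 3, run the opposite way. The order within white is therefore uncertain. A further 2 copies were lower without overlap and did not pass: LOC113065965, chromosome 49, with 0.0199, 0 and 0.116 FPKM in brown against 3.34, 3.91 and 6.53 in white (limma adjusted p = 0.05503), and LOC113042741, chromosome 24, with 0.0175, 0.1501 and 0 FPKM in brown against 1.65, 1.403 and 2.07 in white (limma adjusted p = 0.268). In all, 5 of 7 tested factor XIII A copies were lower by at least 1 without overlap, the most of any family of copies. Of all tested genes 0.832% were lower in this way. These 5 copies reached the level for testing through the white libraries alone, so their count is a description and no support. The handling of reads shared by near-identical copies is unknown from the sources used here, so the level of each single copy is uncertain.

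The fourth fall was in SAMD7-like LOC113119323 (chromosome 2, 19416225 to 19423276), whose mammalian relative represses genes in photoreceptors. It had 0, 0 and 0 FPKM in brown against 10.6, 9.07 and 23.7 in white (limma adjusted p = 0.0237), so it had no read in any brown library. Fitted differences of genes at 0 in a whole color depend on the pseudocount. The calls rested on every white library and on brown 1: without white 1, white 2, white 3 or brown 1, limma called 0 genes, while 1629, 582, 1863 and 2063 had an unadjusted p under 0.05. Without brown 2 limma called 5 genes higher and 0 lower, and without brown 3 it called 4 higher and 0 lower. The yellow libraries, which add to the estimate of spread, also mattered: limma called 5, 8 and 14 genes without yellow 1, 2 and 3. Voom on the recovered reads called 0 genes, and 1303 had an unadjusted p under 0.05.

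**Figure D2:**
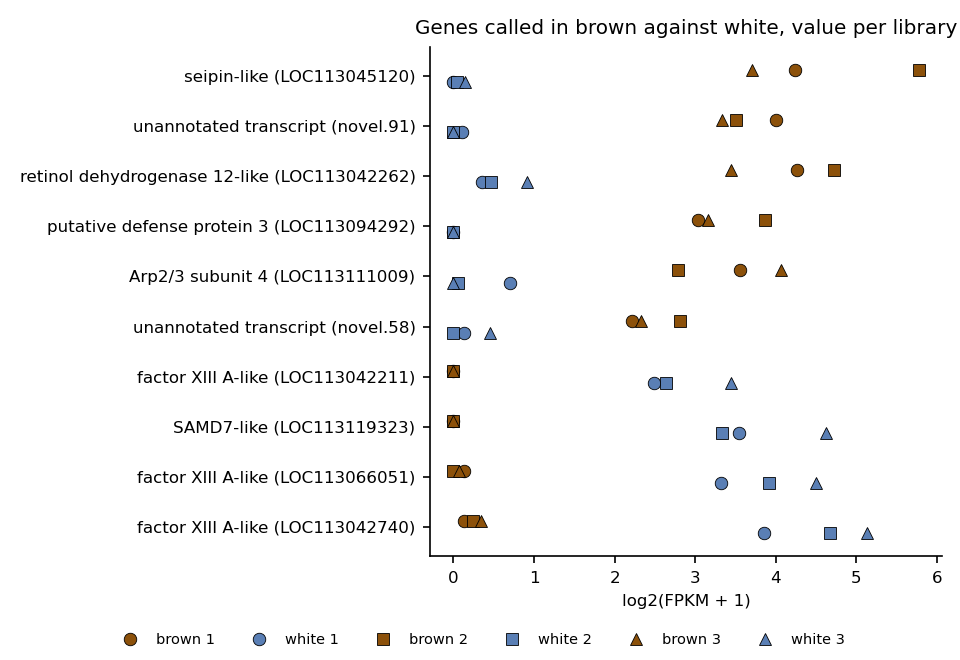
The 10 genes with a limma adjusted p under 0.05, with log2(FPKM + 1) on the horizontal axis and 1 point for each of the 6 libraries (brown or blue by color, shape by replicate). Brown and white libraries lie apart for each gene, and the lower group sits below 1 in all 10.

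Outside the 10 calls no gene named here passed. For those that were tested, limma adjusted p was between 0.0550 (the factor XIII A copy LOC113065965, above) and 0.874 (LOC113116653). Some genes below, such as the second SAMD7 copy, were not tested. Since the genes whose values follow were picked for groups that do not overlap or for a large difference, their direction is part of the choice. Among the largest was a 60S ribosomal protein L21 copy (LOC113081276, unplaced sequence), with 295, 747 and 1953 FPKM in brown against 0.609, 171 and 1.21 in white. White 2 shared the brown level in part while white 1 and white 3 were near 0, and the difference was 6.48 ± 1.63 (SE). A prostaglandin E2 receptor EP4-like gene (LOC113049597, chromosome 30) was even within brown, with 12.6, 11.4 and 11.1 FPKM in brown against 0.207, 0.0551 and 0.0587 in white. All brown libraries lay within 2 FPKM of each other, far above white. The difference was 3.52 ± 0.99 (SE), an error that also holds the yellow spread. Yellow 1, 2 and 3 had 28.02, 16.8 and 0.086 FPKM. Nicotinamide riboside kinase 2 (LOC113087086, unplaced sequence), an enzyme of NAD synthesis from riboside, had 38.6, 122 and 32.8 FPKM in brown against 1.71, 2.88 and 11.3 in white, with brown 2 and white 3 the highest of their colors.

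On the lower side, a microfibril-associated glycoprotein 4-like gene (LOC113114406, chromosome 14), a protein of elastic fibers, had 0.0533, 4.35 and 0 FPKM in brown against 39.1, 10.98 and 9.57 in white. White 1 was the highest, and brown 2 alone of the brown libraries had more than a trace. An acyl-CoA desaturase-like gene (LOC113111436, chromosome 12), which makes monounsaturated fatty acids, had 24.3, 6.76 and 19.3 FPKM in brown against 43.7, 118 and 68.2 in white (-2.18 ± 0.62). White 2 was highest and brown 2 lowest. A serpin H1-like gene (LOC113110010, chromosome 10), a collagen chaperone, had 2.85, 0.359 and 0.177 FPKM in brown against 3.19, 15.6 and 7.74 in white. There the lowest white library was only just above the highest brown one.

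Melanin genes were low throughout but higher in brown. Of 44 annotated genes for melanin synthesis and the melanosome, 38 had a read in these libraries and 14 were tested. Of the tested members 10 were higher and 4 lower, 6 were higher without overlap and 0 lower, against 5.69% and 5.14% of all tested genes. The median difference was 0.61, against -0.02 over all tested genes, but it was -0.73 over the members that passed a filter at 5 FPKM. No member was called. Over the 38 with a read, 15 were higher and 1 lower without overlap. The matching share over all 55142 genes with a read was not computed. Since a gene can enter the test through a high brown group alone, these counts describe the genes and do not test the list. The list took 0.0108%, 0.0225% and 0.00692% of the brown reads and 0.00884%, 0.00607% and 0.003104% of the white reads.

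By role, the enzymes were scarce. Summed over its 3 copies, tyrosinase, which starts melanin synthesis, had 0.959, 3.42 and 1.57 FPKM in brown against 0.285, 0.297 and 0.424 in white, and no copy reached the level for testing. TYRP1, which acts later in the pathway, had summed values of 1.899, 11.2 and 6.34 FPKM in brown against 0, 0.05302 and 0.0529 in white. Brown 2 was the highest library for both, and the groups did not overlap. The matrix protein PMEL summed to 1.73, 6.61 and 2.56 FPKM in brown against 0.0576, 0.18 and 0.174 in white, and MART-1, a small melanosome protein also called MLANA, to 4.75, 9.43 and 4.65 FPKM in brown against 0, 0.267 and 0 in white. White 1 and white 3 had no read of MART-1, and white 2 had 4 reads. Of the transporters, SLC45A2 summed to 0.585, 2.73 and 1.197 FPKM in brown against 0.285, 0.214 and 0.248 in white, and OCA2 reached 0.707 FPKM in brown 2 and less than 0.1 elsewhere.

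Proteins that move and transfer melanosomes were the most abundant of the list to differ. Melanoregulin, which acts in pigment transfer in mice, had 5 copies that summed to 4.22, 17.4 and 12.3 FPKM in brown against 1.05, 2.37 and 1.42 in white. Melanophilin, the link between melanosomes and myosin, summed to 4.73, 18.1 and 3.07 FPKM in brown against 1.09, 2.76 and 0.966 in white. Brown exceeded white in every library for both, and brown 2 stood highest. Rab27A, Rab32 and Rab38, small GTPases that many cell types use, summed to 19.2, 13.02 and 18.9 FPKM in brown against 25.1, 19.2 and 11.4 in white and overlapped between the colors. The regulators of pigment cells did not separate either: MITF, the transcription factor of melanocytes, summed to 2.12, 3.44 and 2.67 FPKM in brown against 1.97, 1.95 and 4.88 in white. Of 4 tested regulators 1 was higher and 3 lower, and ASIP, the antagonist of the melanocortin receptor, overlapped with 4.42, 0.917 and 1.45 FPKM in brown against 4.28, 5.84 and 2.93 in white.

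Lipid and other pigment cell genes separated in part. Over its 5 copies seipin summed to 30.04, 109 and 22.3 FPKM in brown against 4.11, 5.21 and 6.41 in white, and the second copy behind this sum, LOC113113763, chromosome 14, had 9.46, 54.5 and 9.402 FPKM in brown against 1.29, 2.42 and 4.25 in white. Brown 2 stood far above all other libraries. Perilipin-3, a coat protein of lipid droplets, was higher in 1 copy (LOC113059134, chromosome 41), with 4.07, 4.61 and 1.74 FPKM in brown against 0.0186, 0.139 and 0.148 in white. Its 3 white values were all close to 0. For the whole list of lipid droplet and triglyceride genes, 7 of 17 tested members were higher and 10 lower, with a median of -0.06 that was not stable in sign: it was 1.13 with a filter at 5 FPKM, and also above 0 without brown 1, white 2 or white 3. Purine nucleoside phosphorylase (LOC113045188, chromosome 27), an enzyme of purine metabolism, had 4.83, 8.04 and 5.87 FPKM in brown against 2.43, 1.06 and 1.55 in white without overlap, while the purine and iridophore list had 7 members higher and 13 lower (median -0.14). Pax-7 (LOC113068849, unplaced sequence), which specifies xanthophores in fish and is also active in muscle progenitors, had 1.69, 5.82 and 1.22 FPKM in brown against 0.0346, 0.688 and 0.756 in white. It did not overlap, but brown 3 was only just above white 3. Of 7 tested members, 5 of the pteridine and xanthophore list were higher, with a median difference of 0.32. The carotenoid and retinoid list, which holds the called retinol dehydrogenase, had 7 of 19 tested members higher and 12 lower (median -0.23). Of its 12 tested retinol dehydrogenases 4 were higher (median -0.30). Retinol-binding protein 2-like LOC113098389 (unplaced sequence) was lower without overlap, with 12.2, 11.4 and 13.9 FPKM in brown against 17.3, 32.4 and 57.01 in white.

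Most listed epidermal genes were higher and most listed dermal genes lower in brown, but the shares of these tissues did not follow the colors: white 1 had the highest keratinocyte share of the 6 libraries, and white 2 alone a high dermal one. Of 79 tested keratinocyte genes, 58 were higher and 21 lower (median 0.58). Without overlap 8 were higher and 1 lower, together 11.4% of the list against 10.8% of all tested genes. By direction, 5.69% of all tested genes were higher and 5.14% lower without overlap. A list of epidermal transcription factors, written after values had been seen, had 28 of 30 tested members higher (median 0.76). Of these 10, or 33.3% of the list, were higher without overlap, against 5.69% of all tested genes, which describes a list that was chosen with these values known. Dlx4a-like LOC113045011 (chromosome 3), a homeobox gene, had 39.3, 63.05 and 118 FPKM in brown against 5.67, 0.0458 and 12.9 in white. Brown 3 was highest and white 2 at almost 0. Its second copy, LOC113100004 on unplaced sequence, had 2.098, 1.09 and 3.996 FPKM in brown against 0.753, 0 and 0.428 in white, again without overlap. Krueppel-like factor 5 (LOC113038129, chromosome 21), expressed in dividing basal epithelium of mammals, had 33.5, 31.1 and 51.02 FPKM in brown against 9.88, 2.44 and 15.3 in white. Interferon regulatory factor 6 (LOC113040312, chromosome 22) and grainyhead-like 3 (LOC113117578, chromosome 17), both needed for the skin barrier of mice, had 2.998, 17.1 and 13.04 FPKM in brown against 0.749, 0.0301 and 2.55 in white, and 5.18, 4.79 and 6.17 FPKM in brown against 3.65, 0.0844 and 0.641 in white. In each of these factors white 2 was the lowest library.

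The 3 chains of laminin-332, which ties the epidermis to its basement membrane, were higher in brown without overlap. Laminin beta 3 (lamb3, chromosome 22) had 133, 481 and 457 FPKM in brown against 31.03, 14.9 and 132 in white, a difference of 2.92 ± 0.83 (SE). Laminin alpha-3 (LOC113046152, chromosome 27) had 50.6, 108 and 83.8 FPKM in brown against 19.7, 7.02 and 36.5 in white, and laminin gamma-2 (LOC113045437, chromosome 27) 49.4, 37.4 and 69 FPKM in brown against 9.88, 7.84 and 19.7 in white. For lamb3, white 3 came within 1 FPKM of brown 1, and white 2 was lowest for all 3 chains. Only some of their partners followed the same order of colors. Of the tested members, 3 of 5 integrins and 2 of 4 collagen XVII and VII genes were higher. Nidogen, dystonin and plectin had 0 of 9 higher (median -0.45). Integrin beta-4 (LOC113107190, chromosome 8) had 127, 162 and 161 FPKM in brown against 65.9, 67.9 and 77.9 in white. Collagen XVII (LOC113112709, chromosome 13) had 10.5, 11.7 and 17.01 FPKM in brown against 7.39, 0.834 and 2.65 in white. The 3 white values of integrin beta-4 were even and below each brown one. The desmosome genes plakophilin-3 (LOC113043550, chromosome 25) and desmocollin-3 (LOC113063267, chromosome 45), which join keratinocytes to each other, had 74.7, 79.2 and 129 FPKM in brown against 47.9, 8.68 and 27.2 in white, and 53.2, 46.9 and 75.4 FPKM in brown against 20.3, 14.1 and 17.4 in white. Across the whole list of basement membrane genes, also written after values had been seen, 14 of 38 were higher and 24 lower (median -0.34). Without overlap 8 were higher and 4 lower, 31.6% of the list against 10.8% of all tested genes. This again describes a list that was chosen with these values known.

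A pair of epidermal transglutaminases were higher in brown, the other way from factor XIII A. Protein-glutamine gamma-glutamyltransferase K (LOC113040942, chromosome 23), which builds the envelope of skin cells in mammals, had 5.68, 7.35 and 11.3 FPKM in brown against 0.398, 0.145 and 1.12 in white (2.55 ± 0.41, limma adjusted p = 0.198). Its groups did not overlap. Protein-glutamine gamma-glutamyltransferase 5 (LOC113089140, chromosome 6) had 42.7, 11.6 and 37.8 FPKM in brown against 9.47, 1.32 and 4.73 in white, where white 1 came close to brown 2. Of 14 tested transglutaminases 5 were higher and 9 lower. Without overlap 2 were higher and 5 lower, against 5.69% and 5.14% of all tested genes, and these 5 were all factor XIII A copies. Those copies entered the test through the white libraries alone, so the count is a description.

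Of 121 tested members of the dermis and scale list 20 were higher and 101 lower (median -0.46). Without overlap 1 was higher and 11 lower, together 9.92% of the list against 10.8% of all tested genes. By direction, 5.69% of all tested genes were higher and 5.14% lower without overlap. Periostin (LOC113114786, chromosome 15), a matrix protein of growing connective tissue, had 91.4, 71.9 and 179 FPKM in brown against 203, 709 and 331 in white. White 2 was highest by far, and brown 3 lay below white 1. Decorin (LOC113065466, chromosome 4), which binds collagen fibrils, had 115.6, 35.6 and 105 FPKM in brown against 119.5, 279 and 171 in white, where white 1 was just above brown 1. Both tested copies of collagen XVI were lower without overlap: LOC113119389 (chromosome 19) had 6.21, 1.72 and 3.66 FPKM in brown against 9.88, 31.3 and 7.501 in white, and LOC113091766 (unplaced sequence) 1.62, 0.787 and 1.11 FPKM in brown against 3.03, 4.23 and 2.85 in white. Endothelial genes were lower in 14 of 15 (median -0.60), led by the VEGF receptor kdr (LOC113113945, chromosome 14) with 2.46, 0.952 and 3.01 FPKM in brown against 3.2, 11.97 and 3.92 in white. Adipocyte genes were lower in 11 of 12 (median -0.59), led by hormone-sensitive lipase (LOC113059067, chromosome 41) with 3.66, 3.98 and 1.63 FPKM in brown against 5.15, 12.2 and 7.25 in white. Groups were apart in both, by a narrow margin for kdr.

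These tissue medians depended on the libraries that stood apart. Without white 2 alone, the epidermal transcription factors had 22 members higher and 8 lower (median 0.47), and dermis and scale had a median of -0.20. Without white 2, brown 3 and white 3 the keratinocyte median turned to -0.17, with 29 higher and 50 lower, that of the epidermal transcription factors to -0.22, and dermis and scale came to -0.09. The same 3 libraries left out gave a median of 1.10 for melanin genes, which kept its direction, but the members split into 8 higher and 6 lower. With all libraries they were 10 higher and 4 lower. That setting leaves brown 1, brown 2 and white 1, a single white library.

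Genes that glucocorticoids induce in mammals were also higher in brown in part. The list was written after values had been seen and holds 53 annotated copies, 43 of them tested: 31 were higher and 12 lower (median 0.47, or 0.26 with TPM). Without overlap 10 were higher, 23.3% of the list against 5.69% of all tested genes, and 0 lower, as a description of genes chosen with their values known. FKBP5, a chaperone that binds the receptor, was the most abundant, and both copies were higher. LOC113095393 (chromosome 6) had 347, 469.8 and 386 FPKM in brown against 46.3, 148 and 231 in white, and LOC113050431 (chromosome 31) 375, 506 and 443 FPKM in brown against 44.9, 156 and 280.4 in white. The copies kept the same order of libraries, with white 1 lowest and brown 2 highest. Without white 1 their differences were 1.10 and 1.06, against 1.76 ± 0.60 and 1.80 ± 0.65 (SE) with all libraries. Krueppel-like factor 9, a transcription factor and direct receptor target in mammals, was higher in LOC113091279 (unplaced sequence), with 35.5, 22.3 and 30.9 FPKM in brown against 2.24, 3.32 and 10.5 in white, and in LOC113049894 (chromosome 30), with 29.9, 24.2 and 23.96 FPKM in brown against 4.71, 11 and 11.4 in white. Brown values of both lay close together, and white 1 was again lowest. Of 6 tested copies of KLF9 and of KLF15, another member of the list, only 3 were higher (median 0.01). These were the KLF9 copies, so no tested KLF15 copy was higher.

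ZBTB16-A, a transcription factor, was higher in 2 of its copies. LOC113058364 (chromosome 40) had 3.598, 4.59 and 6.701 FPKM in brown against 0.623, 0.752 and 1.36 in white, and LOC113115167 (chromosome 15) 7.49, 4.09 and 10.2 FPKM in brown against 1.07, 1.35 and 2.92 in white. DUSP1 (LOC113113377, chromosome 14), a phosphatase that switches off MAP kinases, had 142, 101 and 87.5 FPKM in brown against 46.5, 67 and 70.8 in white, a smaller difference of 0.83 ± 0.40 (SE). None of these copies overlapped between the colors. The other of 2 tested DUSP1 copies was lower, with overlap, and the median of both was 0.14. Further members did not separate: an SGK1 copy (LOC113116653, chromosome 16), a kinase of ion transport, had 8.599, 12.4 and 51.3 FPKM in brown against 0.639, 10.2 and 46.6 in white, so that the libraries numbered 3 were high in both colors. Of 5 tested SGK1 copies 2 were higher (median -0.11). The glucocorticoid receptor itself was lower in all 4 tested copies of 6 (median -0.87). Of these 2 were lower without overlap, as were 5.14% of all tested genes. LOC113114302 (chromosome 14) had 6.6, 3.47 and 4.51 FPKM in brown against 12.6, 8.65 and 7.18 in white, and LOC113078168 (unplaced sequence) 4.03, 2.73 and 5.48 FPKM in brown against 10.6, 8.27 and 6.24 in white. White 1, the library with the least FKBP5, had the most receptor in both copies. A corticosteroid 11-beta-dehydrogenase 2-like gene (LOC113106037, chromosome 7), whose mammalian relative inactivates cortisol, had 52.3, 29.5 and 74.96 FPKM in brown against 9.37, 19.99 and 24.8 in white, without overlap. Leaving out 1 library at a time kept the list median between 0.29 and 0.57, and without white 2, brown 3 and white 3 it was 0.47, with 31 higher and 12 lower.

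Listed slow type muscle genes were higher in brown, while fast type genes had no stable direction. On a list of slow and cardiac type muscle proteins, written after values had been seen, all 23 tested members were higher in brown and 9 did not overlap (5.69% of all tested genes were higher without overlap), with a median of 1.60 (1.48 with TPM). Members can enter the test through a high brown group alone, so this count and median are a description and no support for a difference of the list. Of 24 fast type proteins 8 were higher and 16 lower, none without overlap, with a median of -0.35. Slow troponin I (LOC113043321, chromosome 25) had 5.77, 14.5 and 29.1 FPKM in brown against 0.649, 3.74 and 3.75 in white. Brown 3 was highest, and brown 1 was only somewhat above white 2 and white 3. Slow troponin T (LOC113045861, chromosome 3) had 2.601, 1.89 and 18.9 FPKM in brown against 0.613, 0.368 and 0.799 in white, and cardiac type troponin T (LOC113058495, chromosome 4) 21.2, 19.4 and 89.5 FPKM in brown against 2.84, 8.34 and 15.1 in white. Both were led by brown 3. Alpha-actinin-2 (LOC113055780, chromosome 37), an anchor of the thin filaments, had 13.6, 17.98 and 36.6 FPKM in brown against 1.95, 3.93 and 8.23 in white.

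As shares of all reads, slow type genes took 0.0496%, 0.0359% and 0.114% of the brown reads and 0.00883%, 0.0178% and 0.0194% of the white reads, and fast type genes 2.13%, 0.909% and 6.65% of the brown reads and 0.739%, 4.21% and 12.1% of the white reads. White 3 thus had the highest share of fast type reads and a lower share of slow type reads than any brown library. The slow median was 0.73 without brown 3, 2.20 without brown 2 and 1.45 without white 2, brown 3 and white 3, with 22, 23 and 23 of 23 members higher. The fast median changed sign when single libraries were left out, from -1.60 to 0.77, and that of the whole skeletal muscle list (51 higher, 95 lower of 146) from -1.59 to 0.52. The depth of the cut that brought muscle into a sample is unknown from the sources used here, and its part in these differences was not tested.

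**Figure D3:**
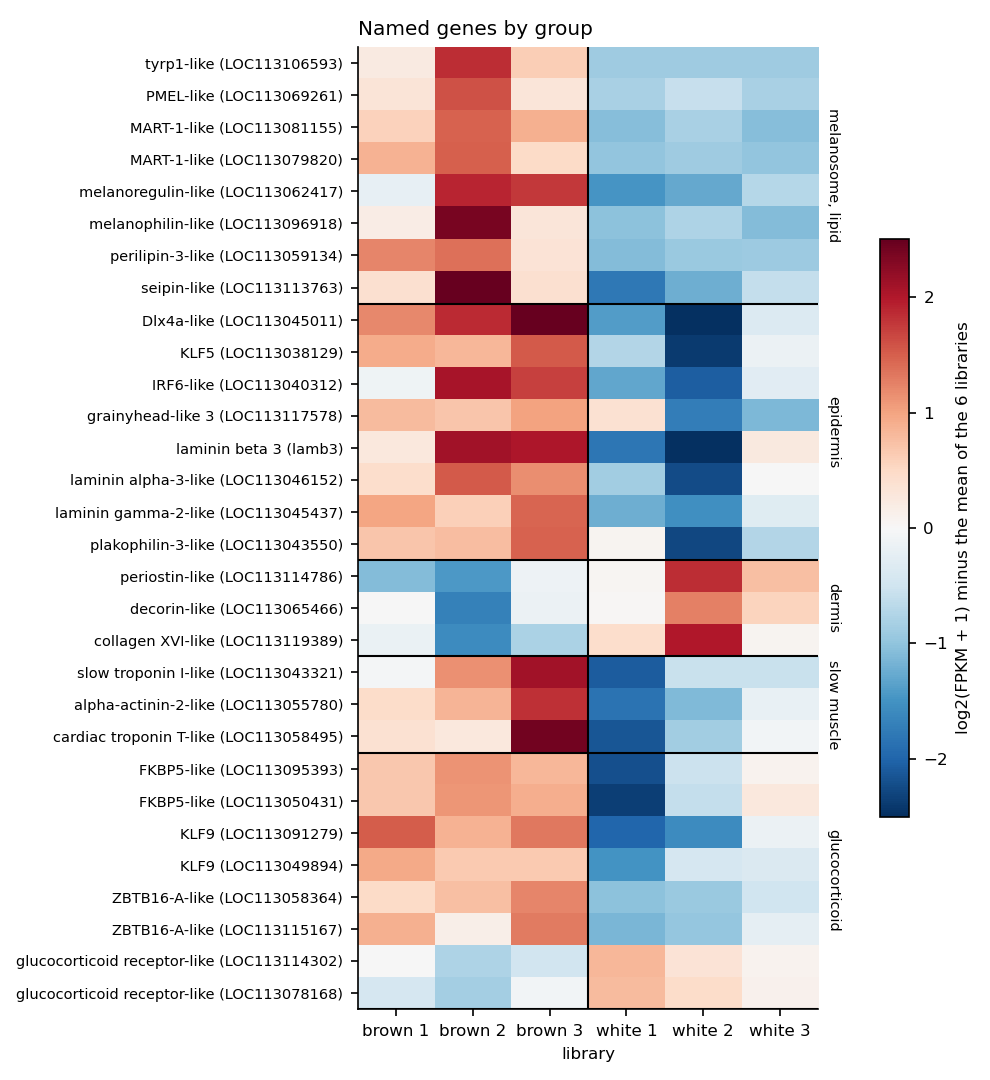
Level of 30 named genes in each of the 6 libraries as log2(FPKM + 1) minus the gene's mean over these libraries, with red above and blue below the mean and the genes ordered by group. Brown 2 leads the melanosome and lipid genes, white 2 is lowest for most epidermal genes, and white 1 is lowest for FKBP5 and Krueppel-like factor 9.

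Of 185 tested ribosomal protein genes 171 were higher and 14 lower in brown. Without overlap 7 were higher and 0 lower, 3.78% of the list, below the 5.69% of all tested genes that were higher without overlap. Their median was 0.64, 0.43 with TPM and 0.18 with quantile scaling. They took 12.5%, 17.9% and 18.5% of the brown reads and 10.99%, 8.35% and 12.03% of the white reads, so that brown 1 was close to white 3. Oxidative phosphorylation genes were near the middle, with 89 higher and 76 lower of 165 (median 0.03, -0.15 with TPM). Glycolytic genes had 20 higher and 34 lower of 54 (median -0.13), and cell cycle genes 8 higher and 22 lower of 30 (median -0.24). Nerve and Schwann cell genes were lower in 13 of 17 (median -0.37). Mucous cell genes were higher in 10 of 15 (median 0.50), and the median was -0.64 without white 2, brown 3 and white 3. Without overlap 3 members were lower and 0 higher, against 5.14% and 5.69% of all tested genes. The plot of list medians sets these ranges side by side.

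**Figure D4:**
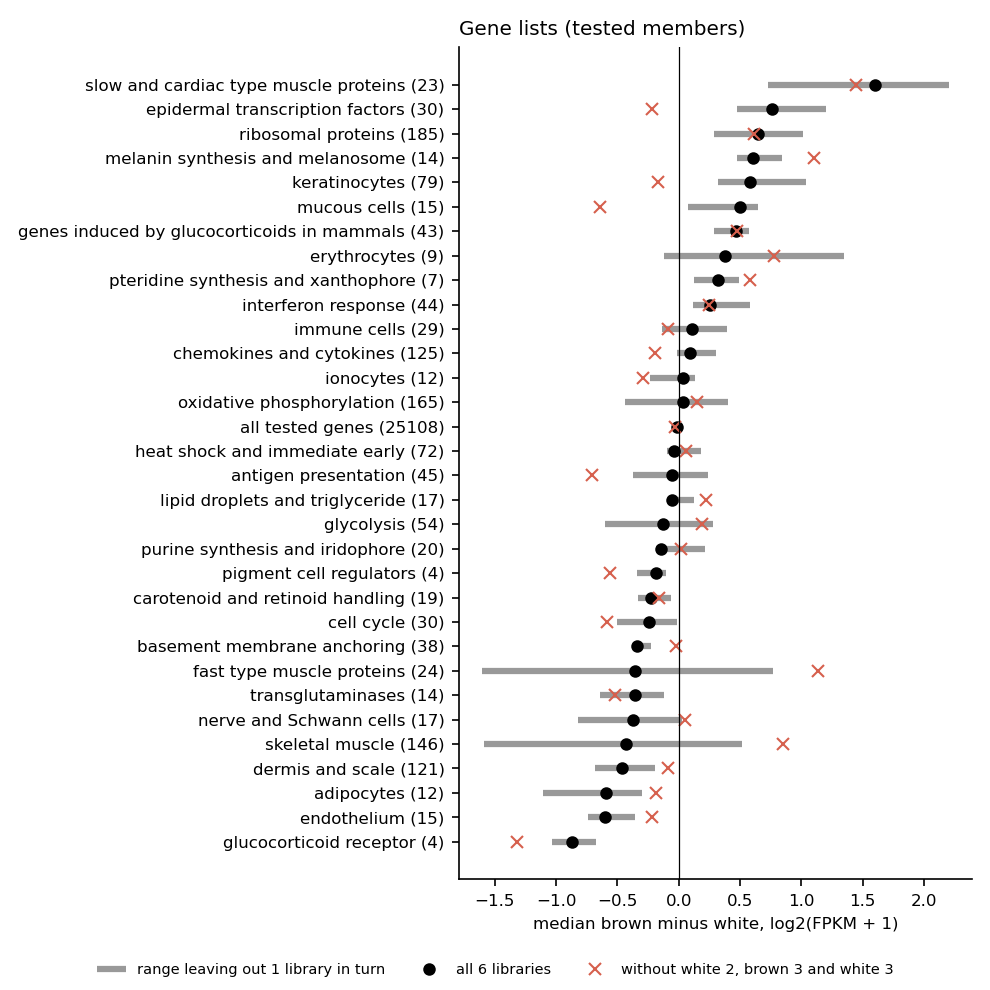
Median difference between brown and white skin on the log2(FPKM + 1) scale for each gene list, with the number of tested members in brackets, ordered from the highest to the lowest. Black points use all 6 libraries, gray bars span the medians when 1 library is left out in turn, and crosses leave out white 2, brown 3 and white 3; slow muscle, ribosomal, melanin and glucocorticoid-induced genes stay above 0 in all of these, while the keratinocyte cross falls below 0.

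Copies of a gene seldom differed together by much. Among 6417 families with at least 2 tested copies, 51 had 2 or more copies that differed by at least 1 without overlap in one direction, 43 higher and 8 lower, and in 21 families this held for all copies. Of all tested genes 2.12% were higher and 0.832% lower in this way. The families were ranked by this same count, so the counts of those named are a description. After factor XIII A came TRIM39, a ubiquitin ligase, with 4 of 27 copies higher, led by LOC113067972 on linkage group LG30F, with 13.4, 39.8 and 13.4 FPKM in brown against 4.24, 2.86 and 11.4 in white. Pre-mRNA-splicing factor 38B had 3 of 3 copies higher: LOC113074267 (unplaced sequence) had 1.52, 3.53 and 3.42 FPKM in brown against 0.677, 0.407 and 0.695 in white, LOC113045367 (chromosome 27) 2.86, 4.71 and 6.94 FPKM in brown against 1.17, 0.7803 and 2.58 in white and LOC113114347 (chromosome 2) 3.17, 9.43 and 6.18 FPKM in brown against 2.2, 1.51 and 2.81 in white. The groups of each copy were apart but near each other. PHLDA2, a small lipid-binding protein, was higher in both copies: LOC113067100 (chromosome 50) had 123, 163 and 387 FPKM in brown against 69.2, 16.7 and 58.9 in white, and LOC113043582 (chromosome 25) 58.5, 75.6 and 137 FPKM in brown against 24.5, 10.02 and 41.9 in white. White 2 was lowest and brown 3 highest for both.

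Neighbouring copies of a gene sometimes differed in opposite directions. Of 930 pairs of copies within 1 Mb of each other and with a mean of at least 0.5 FPKM, 12 had 1 copy higher and the other lower without overlap, 10 had both higher and 5 both lower. Both opposed pairs on chromosome 4 share a gene (LOC113066892). Of all tested genes 5.69% were higher and 5.14% lower without overlap. How many such pairs these shares alone would give was not computed. In 6 of the 12 each copy differed by at least 1, and 4 of these 6 pairs were on chromosome 2. These pairs were picked for their differences, and what follows describes them.

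On chromosome 2 a stretch from 1942508 to 1967574 and another from 2415286 to 2440502 carry the same 4 genes in inverted order. Splicing factor 3A subunit 2 had 0, 3.67 and 0 FPKM in brown against 6.28, 7.24 and 5.26 in white for the first copy (LOC113112209) and 7.46, 2.48 and 7.59 FPKM in brown against 0.135, 0.042 and 1.01 in white for the second (LOC113112372). As a share of both copies, the second was 100%, 40.3% and 100% in brown against 2.10%, 0.577% and 16.1% in white, while the sum of the copies differed by 0.07 on the log2 scale. PLEKHJ1, beside it, had 0.203, 2.495 and 0 FPKM in brown against 13.5, 9.91 and 6.88 in white for LOC113112331 and 10.7, 1.99 and 16.7 FPKM in brown against 0.0511, 0.0636 and 0 in white for LOC113112376, and the sum differed by -0.04. Brown 1 and brown 3 had the second copies almost alone, brown 2 had both, and white had mainly the first.

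Further along, between 19403385 and 19835994, several genes beside SAMD7 also had larger shares of a second copy in brown. SEC62, a protein translocation factor, had 0.324, 0 and 0.257 FPKM in brown against 3.45, 5.304 and 2.21 in white for LOC113119606 and 2.69, 1.42 and 2.21 FPKM in brown against 0.116, 0.0361 and 0.0289 in white for LOC113119422. The second copy was 89.3%, 100% and 89.6% of both in brown and 3.26%, 0.676% and 1.29% in white, and the sum of the copies differed by -0.49 on the log2 scale. Pentraxin PTX3, a secreted immune protein, had 2.04, 5.65 and 6.06 FPKM in brown against 6.31, 23.4 and 9.61 in white for LOC113119404 and 3.69, 2.72 and 2.11 FPKM in brown against 0.0549, 0.137 and 0.0364 in white for LOC113119419, and the sum differed by -0.58. Cyclin-L1, a cyclin linked to splicing, had 0.04497, 0.514 and 8.67 FPKM in brown against 5.305, 5.52 and 12.3 in white for LOC113119354 and 11.1, 32.3 and 7.802 FPKM in brown against 0.0223, 0.0277 and 0.0887 in white for LOC113119367, with a second-copy share of 99.6%, 98.4% and 47.4% in brown and at most 0.717% in white and a sum that differed by 1.23. Its first copy overlapped between the colors, with brown 3 above white 1 and white 2. The shorter of the called unannotated transcripts lies among these genes, and the second SAMD7 copy (LOC113119315) was at or near 0 in all 6 libraries.

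On chromosome 11 the called Arp2/3 subunit 4 copy stood beside a first copy (LOC113111004, 10448419 to 10451517) with 12.4, 7.39 and 19.6 FPKM in brown against 30.7, 25.6 and 25.04 in white. The second copy was 46.5%, 44.3% and 44.6% of both in brown and 1.99%, 0.160% and 0% in white, and the sum of the copies differed by -0.28. The next gene, TADA3, had second-copy shares of 25.9%, 15.1% and 29.2% in brown and 0%, 2.78% and 3.14% in white. Whether the reference sequence matches the fish of each color equally well was not tested.

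**Figure D5:**
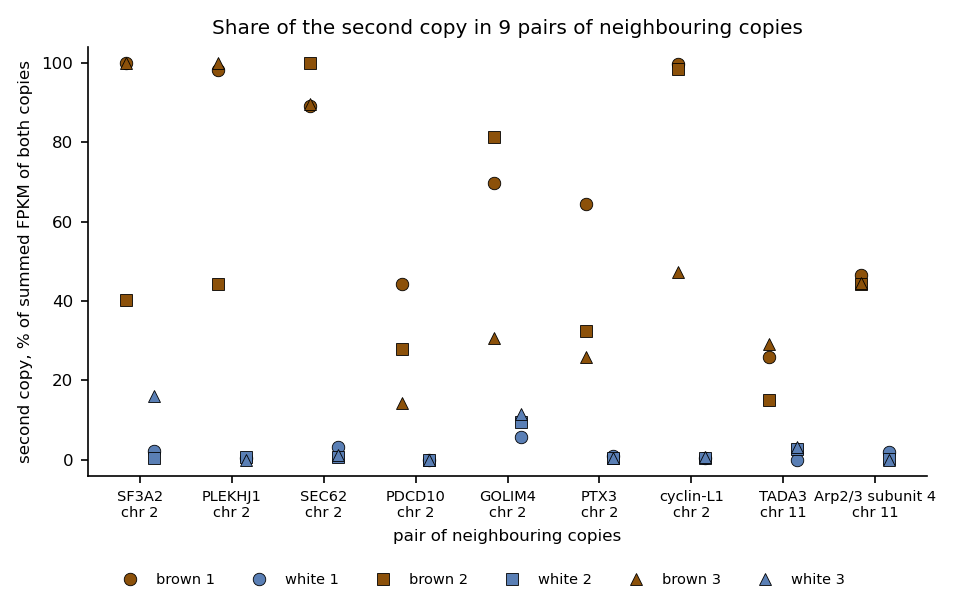
Share of the second copy in the summed FPKM of both copies, in percent, for 9 pairs of neighbouring copies on chromosomes 2 and 11, with 1 point for each of the 6 libraries. Pairs are drawn where both copies together had a mean of at least 1 FPKM, and SAMD7 is left out. All white libraries lie at 16.1% or less, and the brown libraries lie above the white ones in each pair drawn. This did not hold for every weaker pair: kelch-like protein 6 had a second-copy share of 0% in brown 3 and in all white libraries.

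Chromosome 2, with the stretches described above included, held a larger share of the large differences than any other. Of its 548 tested genes, 42 differed by at least 1 without overlap, 27 higher and 15 lower in brown, which is 7.66%. Over the other 49 chromosomes this share ranged from 0.946% to 5.26% with a median of 2.58%. At an unadjusted p under 0.05, limma gave 12.6% of its genes, against 3.15% to 9.09% elsewhere. Of the 10 called genes, SAMD7-like LOC113119323 and both unannotated transcripts lie on it. The median difference of its genes was 0.03. Its large differences include SAMD7 and copies of splicing factor 3A subunit 2, PLEKHJ1, SEC62, PTX3 and cyclin-L1. Those stretches were described for their differences, and the share without them was not computed.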

How the data were processed

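Per the labels' protocols, an Invitrogen kit served for RNA from back skin and a SMARTER mRNA-Seq kit for the libraries. The submitters' processing notes name HISAT2 and StringTie with no version. Strand setting and the counting of reads that match several places are unknown from the sources used here. The authors deposited 1 table per library with FPKM for 74297 genes. The build is not named in the files: 72068 gene IDs matched the RefSeq gene table of assembly ASM336829v1, 72059 with the same start, and 2229 further rows have no gene name. The product of FPKM and gene length came to whole reads for 100% of nonzero values within a tolerance of 0.05 reads, which gave 13772601 to 17359648 reads per library, and the authors' denominators were 0.675 to 1.39 times these. A single read is then worth a known FPKM. For genes with many reads counting error is small beside the spread between replicates. Values that rest on few reads, such as 0, 2 and 1 for TYRP1 in white, also carry counting error.

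The test was limma 3.58.1 (limma-trend) in R 4.3.3 on log2(FPKM + 1), two-sided, with color as the only term, all 9 libraries in 1 fit and genes with FPKM of at least 1 in 3 or more of the 6 brown and white libraries. The yellow libraries add to the estimate of spread. The steps were tested on simulated data. Gene lists are described by counts and medians without a test, and a family is all tested genes that share a product name. The members and lists were chosen with earlier results of these data known, and lists described as written after values had been seen were added later. Genes are named where they are called, where they are among the 10 largest rises or falls with a product name and no overlap, where they lead a list or a family, or where the text says they were chosen after their values were seen. The latter also holds for the copies of a named gene, KLF5, grainyhead-like 3, both transglutaminases, decorin, slow troponin T, ZBTB16-A, DUSP1, SGK1, the 11-beta-dehydrogenase, the integrin, PHLDA2 and the genes beside SAMD7. Alternatives covered the pseudocount, the filter, TPM, other scalings, voom, array weights, a replicate block and libraries left out.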

Additional observations from a re-analysis of the deposited data

How the results depend on the processing

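limma called 10 genes, 6 higher and 4 lower. The count was 5 (1 higher, 4 lower) with TPM, 2 (2 and 0) with no filter, 5 (4 and 1) with a filter at 5 FPKM, 18 (14 and 4) with array weights, 11 (10 and 1; 5 of the 10 genes kept) with a pseudocount of 0.1 and 14 (10 and 4) with 0.5. Voom called 0 (0 and 0; 1303 at an unadjusted p under 0.05). limma called 0 without the libraries numbered 3 (2937 at an unadjusted p under 0.05) and 0 without white 2, brown 3 and white 3 (396). Leaving out 1 library at a time, yellow ones included, gave 0 to 14 calls, 0 to 10 higher and 0 to 4 lower, with the 14 reached without yellow 3. Leaving out 1 brown or white library gave 461 to 1608 genes higher and 156 to 1161 lower by at least 1 without overlap, in place of 532 and 209. These were 273 and 74 with the filter at 5 FPKM, 815 and 528 with voom, 2044 and 1453 without the libraries numbered 3, and 2318 and 1925 without white 2, brown 3 and white 3. The lower count was 505 with a pseudocount of 0.1 and 349 with 0.5. The cause of these shifts was not tested, except that fewer libraries make overlap rarer. Quantile scaling (13 calls), median-of-ratios scaling (10), the 6 libraries alone, robust estimation and a muscle covariate stayed within 1.5 times the 10 calls. Of 96 genes named or plotted, 95 kept their direction in each setting run. Most were chosen for groups that do not overlap, and such a gene cannot reverse with libraries left out or another pseudocount. Their shared direction is thus largely part of the choice and no support for them. SGK1-like LOC113116653, whose groups overlap, differed by 0.98, and by -0.29 without white 1 and 2.14 without white 3. Both count models planned as alternatives were not run, since the files give FPKM.

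The labels give the colors the same replicate numbers. Deviations of same-numbered brown and white libraries correlated at 0.404, -0.243 and 0.300. Brown 1 and brown 3 correlated less with the other white libraries, at -0.601 to 0.288 and -0.334 to 0.038. Brown 2 correlated more with them, at 0.001 to 0.172. Same-numbered libraries were thus alike for numbers 1 and 3 but not for 2. Whether the numbers mark a pairing or a batch is unknown from the sources used here. With a replicate block limma called 3 genes, 2 higher and 1 lower, with 1915 at an unadjusted p under 0.05. With 3 libraries a color, small differences were not detectable, and genes at 0 in a color have no fold.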

Other observations

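Immune genes differed in direction between lists. Of 44 tested interferon response genes 34 were higher and 10 lower, with a median of 0.26 (0.14 with TPM). Without overlap 4 were higher, 9.09% of the list against 5.69% of all tested genes, and 0 lower, against 5.14%. These counts describe the list and do not test it. Of 12 tested macrophage genes 4 were higher, with a median of -0.21, and of 45 tested MHC genes 20 were higher, with a median of -0.05. Both tested copies of Mx, an antiviral GTPase induced by interferon, were higher: LOC113043304 (chromosome 25) had 6.24, 20.6 and 20.4 FPKM in brown against 2.04, 0.183 and 3.21 in white, and LOC113071816 (unplaced sequence) 12.9, 11.1 and 11.1 FPKM in brown against 5.76, 0.562 and 1.69 in white. White 2 was lowest for both. Interleukin-1 beta (LOC113054687, chromosome 35), an inflammatory cytokine, had 4.29, 13.6 and 6.64 FPKM in brown against 2.07, 1.02 and 0 in white. Of the wider lists, 75 of 125 tested chemokine and cytokine genes were higher, with a median of 0.09 that turned to -0.07 with TPM. Genes with an SPRY domain, which many TRIM proteins carry, had 16 of 128 members higher and 4 lower without overlap. Of all tested genes 5.69% were higher and 5.14% lower in this way. The domain was picked from 115 ranked by median difference, where it was number 3, so its counts are a description. Lysozyme C (LOC113066219, chromosome 49), a bactericidal enzyme, was lower, with 1.39, 0.662 and 1.54 FPKM in brown against 3.02, 10.2 and 12 in white.

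Some metabolic and clock genes, chosen after their values were seen, were also higher in brown without passing. Monocarboxylate transporter 4, which exports lactate, had 13.9, 10.4 and 29.1 FPKM in brown against 1.77, 2.58 and 7.93 in white for LOC113111628 and 1.76, 1.63 and 3.68 FPKM in brown against 0.467, 0.4499 and 0.869 in white for LOC113055968. Prostacyclin synthase, which makes a vasodilating lipid, had 13.1, 34.3 and 16.1 FPKM in brown against 4.71, 1.12 and 10.03 in white for LOC113097085 and 5.24, 12.7 and 10.1 FPKM in brown against 4.28, 1.01 and 2.08 in white for LOC113050312. Both brown groups exceeded the white ones. ANKRD37, a gene induced by low oxygen in mammals, had 8.88, 11.5 and 13.8 FPKM in brown against 1.04, 3.99 and 3.56 in white for LOC113107171 and 3.71, 6.12 and 7.59 FPKM in brown against 0.866, 1.89 and 2.85 in white for LOC113044173. Of the clock genes, NR1D2, a repressor, had 237, 167 and 202 FPKM in brown against 61.2, 116.3 and 130.4 in white for LOC113059351 and 125, 80.5 and 120.2 FPKM in brown against 31.1, 50.5 and 54.6 in white for LOC113115669. Over the 6 tested NR1D2 copies the median difference was 0.03, and only these 2 were higher by at least 1 without overlap. Period 1 (LOC113054209) had 8.75, 7.45 and 6.43 FPKM in brown against 5.64, 3.15 and 2.31 in white. The hour of sampling is unknown from the sources used here.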
